A study of Mus musculus with 12 samples.

Results

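Wild-type kidneys after ischemia/reperfusion injury (IRI) were compared with uninjured wild-type kidneys. The labels name 3 WT IRI libraries and 3 WT control libraries, which are 6 of the 12 libraries of the series and were taken by their labels alone. The other 6 libraries, 3 KO IRI and 3 KO control, came from mice with a genetic deletion of Ybx3, the gene of DNA-binding protein A, which binds DNA and RNA. All mice were adult, all tissue was whole kidney, and no group other than the knockout carries an allele or agent named in the labels. In IRI the blood flow to a kidney is stopped and then restored. The sources used here do not give the length of the ischemia, the time after it, the sex or strain of the mice, whether controls had sham surgery, or whether each library is 1 animal. The p-values below therefore measure only the spread between these samples, which may be technical.

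The tubules of the kidney take back most of the filtered water, salt, sugar, phosphate and amino acids. The proximal tubule does most of this work, burns mainly fatty acids, and is the segment best known to suffer when oxygen runs out. Tubule cells that survive are known to lose their transporters and polarity, rebuild their cytoskeleton, switch on growth factor and stress genes, attract leukocytes, and later regain their mature state. In RNA of a whole kidney, fewer cells of a type and less RNA per cell cannot be told apart.

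Between 39074224 and 67948710 reads were counted per library over the series, and between 49715880 and 58787224 in the 6 wild-type libraries. Values below are CPM, read counts scaled to a common library size, and 3 values in a row stand for replicates 1, 2 and 3. Differences are log2 fold changes of IRI over control from edgeR's quasi-likelihood fit to all 12 libraries, with Benjamini-Hochberg adjustment over 19218 genes, and a gene was called at an adjusted p under 0.05. The median log2 fold change over all genes tested was 0.02. Libraries differed in a way that the groups do not explain. Ddx3y, Kdm5d, Eif2s3y and Uty, genes of the Y chromosome, together came to 206.6, 33.2 and 307.1 CPM in WT IRI, against 1.14, 1.79 and 1.54 CPM in WT control. They came to 45.2, 227.4 and 1.26 CPM in KO IRI, against 1.18, 248.5 and 261.2 CPM in KO control. Injury and Y-linked level therefore moved together in wild type, so results are also given from a fit with the log2 Y-linked level as a further term, called the Y term below. Because they moved together, this term also makes the WT difference less precise. A call that ends under it therefore does not tell which of them the gene followed. Of other tissues that a sample could hold, genes of the adrenal gland summed to between 5.59 and 8.07 CPM in WT IRI and between 5.93 and 6.34 CPM in WT control. In the KO libraries they summed to 287.9, 1482 and 6.56 CPM in KO IRI, against 11.3, 5.97 and 6.63 CPM in KO control, so that KO IRI replicates 1 and 2 stood apart from the other 10 libraries. Genes of skeletal muscle summed to between 1.42 and 3.19 CPM in WT IRI and between 10.9 and 16.5 CPM in WT control. Those of red blood cells summed to 48.2, 47.4 and 305.8 CPM in WT IRI and between 48.3 and 70.1 CPM in WT control. The high value was thus in WT IRI replicate 3 alone.

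The label of the injured libraries matched the markers of tubular injury in each library. Havcr1, the phosphatidylserine receptor called kidney injury molecule 1, stood at 769, 358 and 720.0 CPM in WT IRI, against 1.46, 1.44 and 1.12 CPM in WT control. Lcn2, a siderophore-binding protein, stood at 237, 84.8 and 299 CPM in WT IRI and 1.65, 0.456 and 0.906 CPM in WT control. Krt20, a keratin, stood at 173, 106 and 809 CPM in WT IRI and 0.873, 0.456 and 0.463 CPM in WT control. The groups did not overlap for any of the 3 genes, and WT IRI replicate 2 was the lowest injured library for each of them. Their log2 fold changes were 8.84 (SE 0.49) for Havcr1, 7.70 (SE 0.63) for Lcn2 and 9.25 (SE 0.93) for Krt20, with edgeR adjusted p of 3.1e-05, 0.000356 and 0.000638. All 3 also passed with the Y term. Umod, the defining product of the thick ascending limb, stood at 1281, 2285 and 1239 CPM in WT IRI and 2309, 1959 and 1884 CPM in WT control, with overlapping groups and no call (edgeR adjusted p = 0.278). It passed as lower without WT IRI replicate 2 (edgeR adjusted p = 0.0117). Ybx3 itself, deleted only in the knockout, stood at 81.1, 53.9 and 104 CPM in WT IRI and 36.9, 33 and 30.2 CPM in WT control, and rose by 1.26 on the log2 scale (edgeR adjusted p = 0.00568).

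Genes differed in both directions between injured and control kidneys. Of 19218 genes tested, 4320 (22.5%) were called, 2512 (13.1%) of them higher and 1808 (9.41%) lower after IRI. The WT IRI and WT control libraries did not overlap for 2451 of the higher and 1784 of the lower genes. These genes were chosen by a test on the same libraries, so their separation describes them and is no further evidence. That also holds for each called gene whose groups are said to be apart below. At least 2-fold changes were called in 1031 higher and 898 lower genes, and at least 8-fold changes in 181 and 37. The median log2 fold change was 0.85 over the called higher genes and -0.99 over the called lower genes. These counts depended on single libraries. They fell to 1452 higher and 912 lower genes without WT control replicate 1, 953 and 617 without WT control replicate 2, 983 and 711 without WT control replicate 3, and 1479 and 593 without WT IRI replicate 1. They reached 3796 and 3333 without WT IRI replicate 2. In the fit with the Y term 220 genes were called higher and 86 lower, of which 212 and 73 were among the genes above, and 9 of the 4320 genes had the opposite sign.

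Beyond the 3 markers, 22 of 26 tested genes known from tubular injury and repair were called higher and 0 lower, with a median log2 fold change of 2.71. The 3 chains of fibrinogen, the clotting protein that injured tubules also make, were among them. Fgb stood at 88.2, 31 and 250.2 CPM in WT IRI, against 1.4, 2.16 and 1.08 CPM in WT control (log2 fold change 6.30, edgeR adjusted p = 0.00141). Its partners Fgg and Fga had log2 fold changes of 6.29 and 5.69. Krt8, a keratin of simple epithelia, stood at 322, 169 and 368 CPM in WT IRI and 53.4, 42.2 and 40.3 CPM in WT control (log2 fold change 2.66, edgeR adjusted p = 0.000984). All injured libraries exceeded all controls for Fgb and Krt8. Cryab, Krt7, Krt19 and Vcam1 were not called. The count lay between 21 and 24 as each library was left out and was 19 with the Y term. The list holds known injury genes, so its direction is no independent evidence.

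Among 28 factors of kidney repair and lineage, 6 were called higher and 4 lower, against 13.1% and 9.41% of all genes tested. The median log2 fold change of the list was -0.14. Myc, the growth-promoting factor, stood at 42, 15.7 and 53.8 CPM in WT IRI, against 4.61, 3.89 and 1.99 CPM in WT control (log2 fold change 3.41, edgeR adjusted p = 0.00312). Foxi1, a factor of intercalated cells, stood at 8.63, 12.6 and 7.81 CPM in WT IRI and 14.8, 22 and 20.5 CPM in WT control (log2 fold change -0.98, edgeR adjusted p = 0.0152). Myc was above and Foxi1 below all controls in each injured library. Hnf4a, which maintains the proximal tubule, stood at 452, 506 and 291 CPM in WT IRI and 661, 674 and 600.0 CPM in WT control (log2 fold change -0.63, edgeR adjusted p = 0.0402). Sox4, Runx1, Cebpb, Pax8 and Sox9 were the other higher genes and Emx1 and Esrra the other lower ones. The 4 lower calls fell to 0 without WT control replicate 3 or WT IRI replicate 1, to 1 without WT control replicate 1 or 2, or KO control replicate 2 or KO IRI replicate 3, and to 2 without WT IRI replicate 3 or KO IRI replicate 1, and were 8 without WT IRI replicate 2. The calls of Hnf4a and Foxi1 each ended without WT control replicate 2 or 3 or WT IRI replicate 1, and that of Hnf4a also without WT control replicate 1 or WT IRI replicate 3. Under the Y term 1 gene, Myc, was called.

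**Figure D1:**
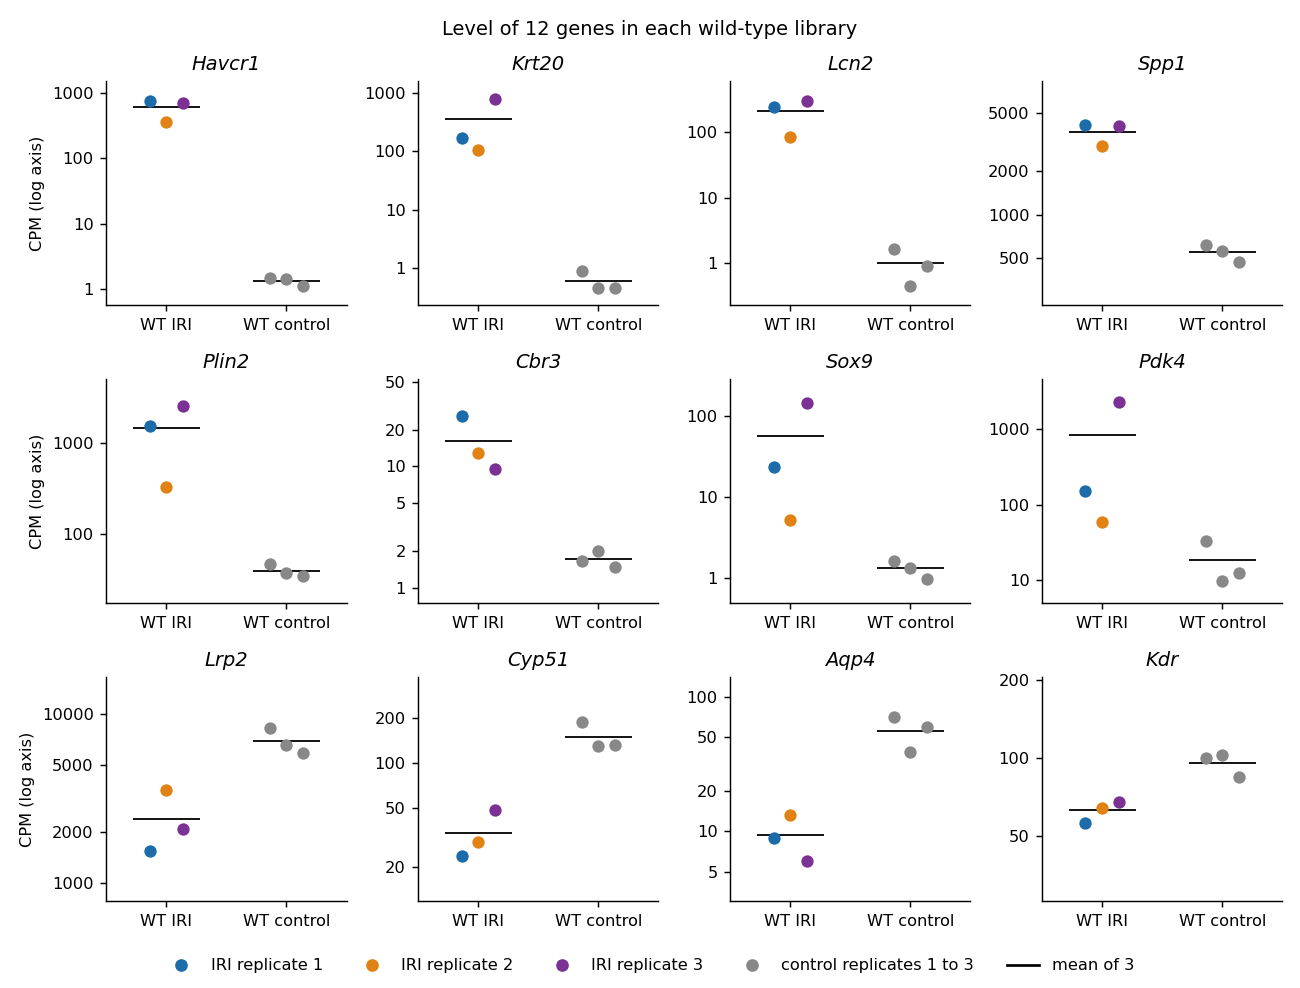
Level of 12 genes in each of the 6 wild-type libraries, in CPM on log axes, with WT IRI on the left and WT control on the right of each panel. Coloured points are the injured replicates, grey points the controls and black lines the mean of 3; the groups are apart in every panel, and WT IRI replicate 3 stands far above the other injured libraries for Sox9 and Pdk4.

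The largest gains in reads included genes of lipid storage, iron storage and the matrix, beside a helicase and a centrosome gene. The secreted matrix protein Spp1 stood at 4152, 2941 and 4074 CPM in WT IRI, against 616, 558 and 473 CPM in WT control (log2 fold change 2.76, edgeR adjusted p = 0.000509). Plin2, the coat protein of lipid droplets, stood at 1546, 332 and 2549 CPM in WT IRI and 47, 37.8 and 34.8 CPM in WT control (log2 fold change 5.21, edgeR adjusted p = 0.00202). Fth1, the heavy chain of the iron store ferritin, stood at 3116, 2059 and 3177 CPM in WT IRI and 950.1, 819 and 710.0 CPM in WT control (log2 fold change 1.75, edgeR adjusted p = 0.00179). For all 3 genes every injured library lay above every control, with the lowest injured value in WT IRI replicate 2, and the calls held with the Y term. Chd9, a chromatin helicase, stood at 4984, 4149 and 10820 CPM in WT IRI and 1214, 1194 and 2135 CPM in WT control, and Cep85, of the centrosome, at 2325, 1490 and 5040 CPM in WT IRI and 576, 618 and 742 CPM in WT control. The groups were also apart for both. They rose by log2 fold changes of 2.13 and 2.19 (edgeR adjusted p = 0.00552 and 0.00472), and neither passed with the Y term (edgeR adjusted p = 0.105 and 0.07).

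The largest losses in reads included genes of tubular uptake and transport. Lrp2 encodes megalin, the endocytic receptor with which the proximal tubule takes up filtered protein. It stood at 1549, 3551 and 2064 CPM in WT IRI, against 8259, 6566 and 5836 CPM in WT control (log2 fold change -1.53, edgeR adjusted p = 0.0109). Egf, a growth factor precursor made in the distal nephron, stood at 74.2, 366 and 364 CPM in WT IRI and 2003, 2165 and 2072 CPM in WT control (log2 fold change -2.96, edgeR adjusted p = 0.00905). Slc8a1, a sodium and calcium exchanger, stood at 439.5, 524 and 245 CPM in WT IRI and 1292, 3110 and 2314 CPM in WT control (log2 fold change -2.47, edgeR adjusted p = 0.00319). The injured libraries lay below all controls for each of them, and WT IRI replicate 2 had the highest injured value of each. With the Y term the adjusted p of edgeR was 0.17 for Lrp2, 0.153 for Egf and 0.0621 for Slc8a1, so that the 3 calls ended. By fold change the steepest losses among genes of at least 1 CPM included Slc5a4a, of the sodium-glucose cotransporter family, with 0.61, 1.92 and 0.766 CPM in WT IRI and 17.4, 15.6 and 19.4 CPM in WT control. They also included Pvalb, the calcium-binding parvalbumin of the distal convoluted tubule and of muscle, with 0.081, 1.14 and 0.915 CPM in WT IRI and 12.3, 11.1 and 7.44 CPM in WT control. The summed level of skeletal muscle genes, a list that holds Pvalb, was also lower in every WT IRI library, and its part in this value was not tested. Neither gene passed with the Y term (edgeR adjusted p = 0.0501 and 0.105). Among the 10 steepest gains 5 were genes of the Y chromosome with near-identical copies, whose counts the authors' counting could split, and the others were Havcr1, Krt20, Cxcl2, Cyp2b10 and Sult1e1.

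Genes that cells switch on within minutes to hours of a stimulus, transcription factors among them, were high together. Of 30 tested members 22 were called higher and 0 lower, with a median log2 fold change of 1.60. Fosl1, a subunit of the AP-1 factor, stood at 26.4, 6.73 and 68.9 CPM in WT IRI, against 2.35, 1.82 and 2.04 CPM in WT control. Dusp5, a phosphatase that shuts off ERK in the nucleus, stood at 30.2, 9.17 and 58.6 CPM in WT IRI and 1.91, 1.91 and 1.66 CPM in WT control. Egr2, a zinc finger factor, stood at 5.93, 3.58 and 3.04 CPM in WT IRI and 0.609, 0.236 and 0.328 CPM in WT control. The groups did not overlap for any of them, and the highest injured library was WT IRI replicate 3 for Fosl1 and Dusp5 and replicate 1 for Egr2. The genes rose by log2 fold changes of 4.03, 4.16 and 3.42 (edgeR adjusted p = 0.00467, 0.00312 and 0.00259). The exons of Fosl1 overlap another gene over 57.2% of their bases, so that reads could be shared. The count of 22 fell to 9 without WT control replicate 2 or 3 and to 14 without WT IRI replicate 3, and to 2, Egr2 and Ier5, with the Y term, where the median was 1.39 and the adjusted p of edgeR was 0.0928 for Fosl1 and 0.0575 for Dusp5.

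Genes of growth factors and cytokines were also called higher in part. Of 21 genes of the IL-6 family and STAT3 signalling, 12 were called higher and 2 lower. Lif, a cytokine of that family, stood at 26, 6.04 and 9.64 CPM in WT IRI and 0.508, 0.726 and 0.27 CPM in WT control (log2 fold change 4.78, edgeR adjusted p = 0.00222). Socs3, the feedback inhibitor of the pathway, stood at 34.1, 12.6 and 106 CPM in WT IRI and 3.29, 2.4 and 2.31 CPM in WT control (log2 fold change 4.25, edgeR adjusted p = 0.00403). Among the EGF receptor family and its ligands 4 of 15 were called higher and 1, Egf, lower. The shares over all genes tested were 13.1% higher and 9.41% lower. The ligand Hbegf stood at 38.3, 13.9 and 37.4 CPM in WT IRI and 6.82, 5.95 and 6.52 CPM in WT control, and Nrg1 at 213, 81 and 102 CPM in WT IRI and 17.6, 28.9 and 22.5 CPM in WT control (edgeR adjusted p = 0.00467 and 0.00356). The injured libraries were thus above all controls for both ligands, in the opposite direction to Egf. Among 17 chemokines 8 were called higher and 2 lower. Cxcl1, which draws neutrophils, stood at 16.5, 6.8 and 81.9 CPM in WT IRI and 0.183, 0.236 and 0.251 CPM in WT control (log2 fold change 7.28, edgeR adjusted p = 0.0023), while Cxcl12 fell to 26.9, 46.2 and 24.9 CPM in WT IRI, against 106, 87.7 and 88.5 CPM in WT control (log2 fold change -1.52, edgeR adjusted p = 0.00397). When the Y term was added, 1 of 21, 0 of 15 and 2 of 17 genes were called higher, Lif and Cxcl1 among them but none of the other genes named here. Leaving out WT control replicate 2 brought the 12 genes of the IL-6 list to 7, and leaving out WT control replicate 1, 2 or 3 or WT IRI replicate 1 brought the 8 chemokines to 5.

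Since AP-1 subunits were among the called genes, stretches before the transcription start are shown for 4 higher genes. They had the largest log2 fold change among eligible genes with the AP-1 letters TGACTCA on either strand. The letters had to lie in the 250 bases before the start of the first RefSeq window. Eligible were genes the text could name with at least 5 CPM and groups that did not overlap. Genes of 1 chromosome, that of Cd14 and Rnf125, were left out of the choice. Lif, the metallothionein Mt2, the cornified envelope protein Sprr1a and the tight junction protein Cldn4 met this rule. The 4 stretches are from RefSeq on GRCm38.p6, at chr11:4257318-4257376 (plus strand), chr8:94172509-94172575 (plus strand), chr3:92485991-92486057 (minus strand) and chr5:134947138-134947184 (minus strand), written 5′ to 3′ on the gene's strand with 1 match in capitals, 228, 79, 146 and 240 bases before the start.
Lif: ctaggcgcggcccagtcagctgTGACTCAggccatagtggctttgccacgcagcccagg
Mt2: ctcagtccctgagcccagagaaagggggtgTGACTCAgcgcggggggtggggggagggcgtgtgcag
Sprr1a: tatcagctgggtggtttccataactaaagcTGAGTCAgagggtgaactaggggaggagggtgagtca
Cldn4: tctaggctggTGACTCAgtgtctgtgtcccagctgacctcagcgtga
Among the lower genes the same rule with the letters GTTAAT, a half-site of the tubular factor HNF1, took Hao2, Cyp2d26, Slc34a1 and Gabarapl1. These stretches lie at chr3:98893419-98893480 (minus strand), chr15:82794300-82794365 (minus strand), chr13:55399557-55399622 (plus strand) and chr6:129532956-129533021 (plus strand), with the match 224, 90, 61 and 206 bases before the start.
Hao2: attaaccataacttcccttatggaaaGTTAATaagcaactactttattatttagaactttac
Cyp2d26: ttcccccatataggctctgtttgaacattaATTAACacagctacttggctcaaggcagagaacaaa
Slc34a1: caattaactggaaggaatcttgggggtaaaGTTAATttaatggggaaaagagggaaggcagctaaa
Gabarapl1: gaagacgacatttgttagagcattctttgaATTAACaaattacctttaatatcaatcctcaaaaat
Of all 32851 windows of the same length, 5.2% held TGACTCA and 7.1% held GTTAAT on either strand. A window was found for 78.9% of the tested protein-coding genes, fewer than the 80% needed, so that a comparison of shares between called and other genes is void and no share is given for them. Among the genes shown, the calls of Hao2 (edgeR adjusted p from 0.0569 to 0.0764) and Cyp2d26 (0.0671 to 0.0805) ended without any 1 of the WT controls or of WT IRI replicates 1 and 3, that of Slc34a1 (0.0504 to 0.0653) without any 1 of the WT controls or WT IRI replicate 1, and that of Sprr1a (0.0508 to 0.0514) without WT control replicate 2 or 3.

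Genes of actin filaments and microtubules were higher. Of 32 tested genes of the actin cytoskeleton 17 were called higher and 0 lower (median log2 fold change 0.58), and of 13 tubulin genes 8 were called higher and 0 lower (median 1.22). Actn1, which crosslinks actin at adhesions, stood at 268, 166 and 332 CPM in WT IRI, against 84, 80.6 and 96.8 CPM in WT control (log2 fold change 1.55, edgeR adjusted p = 0.00297). Arpc1b, a subunit of the complex that branches actin, stood at 86.4, 70.5 and 103 CPM in WT IRI and 34, 31.2 and 33.6 CPM in WT control (log2 fold change 1.40, edgeR adjusted p = 0.000638). Tubb2a, a beta tubulin, stood at 82.8, 60.9 and 149 CPM in WT IRI and 26.1, 35.5 and 29.9 CPM in WT control (log2 fold change 1.68, edgeR adjusted p = 0.00618). All injured libraries lay above all controls for these 3 genes. Flnc, a filamin that crosslinks actin, stood at 48.1, 25.6 and 19.3 CPM in WT IRI and 3.41, 3.35 and 2.93 CPM in WT control, and here WT IRI replicate 3 was the lowest injured library. The actin count ranged from 13 to 18 and the tubulin count stayed at 8 as each of the 12 libraries was left out. After adding the Y term, 8 of 32 and 3 of 13 were called higher, Actn1 and Arpc1b among them, and the medians were 0.64 and 1.08. Tubulin genes are near-identical copies of each other, so that reads could be split between them.

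Genes for making ribosomes, handling RNA and degrading proteins were higher by moderate amounts. Of 39 genes of ribosome biogenesis 33 were called higher and 0 lower (median log2 fold change 0.77). Gar1, a protein of the complex that pseudouridylates ribosomal RNA, stood at 13.3, 8.28 and 15.6 CPM in WT IRI and 3.88, 4.65 and 5.13 CPM in WT control (edgeR adjusted p = 0.00487). Of 26 factors of RNA processing and translation 15 were called higher and 0 lower. Eif6, which keeps the large ribosomal subunit apart from the small one, stood at 153, 91.8 and 184 CPM in WT IRI and 39.4, 32.2 and 31 CPM in WT control (log2 fold change 2.07, edgeR adjusted p = 0.00139). Of 32 proteasome genes 24 were called higher and 0 lower (median 0.51). Psmd11, of the regulatory cap of the proteasome, stood at 151, 110.1 and 198 CPM in WT IRI and 75.6, 75.1 and 77.7 CPM in WT control (edgeR adjusted p = 0.00552). Each of the 3 genes was higher in every injured library than in every control. The ribosome list fell to 16 called without WT control replicate 2 or 3 and to 21 without WT IRI replicate 1, and the proteasome list to 8 without either of those controls and to 14 without WT IRI replicate 1. Under the Y term 0 of 39, 1 of 26 and 0 of 32 genes were called higher, Eif6 being the 1, with medians of 0.59, 0.47 and 0.29.

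Lists of chaperones, glycolysis and the hypoxia response had medians near 0. Of 23 heat shock chaperones 7 were called higher and 1 lower, and Hspb1, a small heat shock protein, stood at 62.2, 25.6 and 76.1 CPM in WT IRI, against 9.5, 7.99 and 8 CPM in WT control (log2 fold change 2.69, edgeR adjusted p = 0.0103). Of 20 chaperones of the endoplasmic reticulum 2 were called higher and 0 lower, and Xbp1, the factor that drives them, stood at 183, 125 and 256 CPM in WT IRI and 75.5, 77.8 and 62 CPM in WT control (log2 fold change 1.39, edgeR adjusted p = 0.00697). Both were above the controls in all injured libraries. Of 21 genes of glycolysis 2 were called higher and 3 lower. Aldoc, an aldolase, stood at 1.62, 4.38 and 1.7 CPM in WT IRI and 8.28, 5.63 and 11.5 CPM in WT control, and Slc16a3, which exports lactate, at 4.49, 3.69 and 6.04 CPM in WT IRI and 1.56, 2.16 and 2.47 CPM in WT control (edgeR adjusted p = 0.0135 and 0.00809). Aldoc was thus lower and Slc16a3 higher in each injured library. Of 20 genes of the hypoxia response 2 were called higher and 3 lower. The median log2 fold changes were 0.15, 0.16, 0.13 and -0.10 over the 4 lists. Of all genes tested 13.1% were called higher, and the endoplasmic reticulum, glycolysis and hypoxia lists had smaller shares of higher calls. The glycolysis and hypoxia lists had larger shares of lower calls than the 9.41% of all genes. The 7 higher heat shock calls fell to 4 without WT control replicate 3, the call of Aldoc ended without WT control replicate 3 or WT IRI replicate 1 (edgeR adjusted p = 0.0565 and 0.0517), and 0 genes of the 4 lists were called under the Y term. The 2 higher hypoxia calls fell to 0 without any 1 of the WT controls or WT IRI replicate 3, and to 1 without KO control replicate 2 or 3 or any 1 of the KO IRI libraries. The 3 lower hypoxia calls fell to 0 without WT control replicate 2 or WT IRI replicate 1 and to 1 without WT control replicate 1 or 3. The 3 lower glycolysis calls fell to 0 without WT IRI replicate 1 and to 1 without WT control replicate 2 or 3, and its 2 higher calls to 1 without any 1 of the WT controls or WT IRI replicate 3.

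Of 24 genes of lysosomes and autophagy 8 were called higher and 2 lower, against 13.1% and 9.41% of all genes tested. Sqstm1, the cargo receptor p62, stood at 625, 318 and 840.5 CPM in WT IRI, against 233, 209.9 and 188 CPM in WT control (log2 fold change 1.5, edgeR adjusted p = 0.0136). Gabarapl1, which coats autophagosomes, stood at 193, 202 and 154 CPM in WT IRI and 399.8, 417 and 363 CPM in WT control (log2 fold change -1.11, edgeR adjusted p = 0.0014). The groups were apart for both genes, in opposite directions. Without WT control replicate 2 or 3 the 8 higher calls fell to 3 and that of Sqstm1 ended (edgeR adjusted p from 0.0539 to 0.0581), and under the Y term Gabarapl1 alone was called.

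Defence against oxidants and heme and the response to amino acid stress were raised. Of 25 redox and heme genes 14 were called higher and 1, the mitochondrial superoxide dismutase Sod2, lower. Hmox1, which breaks down heme, stood at 255, 51.9 and 165 CPM in WT IRI, against 7.96, 9.63 and 6.54 CPM in WT control (log2 fold change 4.29, edgeR adjusted p = 0.00233). Mt2, a metallothionein, stood at 111, 41.8 and 404 CPM in WT IRI and 9.97, 13.1 and 13.2 CPM in WT control (log2 fold change 3.94, edgeR adjusted p = 0.00552), and 73.5% of its exon bases overlap another gene, so that reads could be shared. Of 24 genes of the integrated stress response and serine synthesis 12 were called higher and 1 lower. Mthfd1l, of mitochondrial folate metabolism, stood at 41, 18.7 and 131 CPM in WT IRI and 8.75, 8.01 and 8.83 CPM in WT control (log2 fold change 2.90, edgeR adjusted p = 0.00742). The injured libraries were all above the controls for these genes, with WT IRI replicate 3 the highest for Mt2 and Mthfd1l and replicate 1 for Hmox1. The 14 redox calls ranged from 12 to 15 as each library was left out, whereas the 12 stress calls fell to 4 without WT control replicate 1, 2 or 3, to 7 without WT IRI replicate 1 and to 6 without WT IRI replicate 3. Under the Y term 3 of 25 genes, Hmox1 among them, and 1 of 24 were called higher, while Mt2 and Mthfd1l were not (edgeR adjusted p = 0.0686 and 0.118).

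Genes of cell cycle arrest and of cell cycle entry were each called higher in part. Of 21 targets of p53 and genes of cell cycle arrest 9 were called higher and 1 lower. Cdkn1a, the inhibitor p21, stood at 62.3, 27.9 and 274 CPM in WT IRI and 5.58, 7.52 and 8.15 CPM in WT control (log2 fold change 4.10, edgeR adjusted p = 0.011). Gdf15, a secreted stress hormone, stood at 56.2, 15.2 and 66.6 CPM in WT IRI and 3.02, 3.77 and 2.04 CPM in WT control (log2 fold change 3.96, edgeR adjusted p = 0.00282). Of 32 genes of cell cycle entry and DNA replication 7 were called higher and 0 lower, against 13.1% and 9.41% of all genes tested. Ccne1, the cyclin that starts replication, stood at 0.61, 1.1 and 1.43 CPM in WT IRI and 0.406, 0.152 and 0.27 CPM in WT control (edgeR adjusted p = 0.00792), while Mki67, a marker of dividing cells, stood at 1.77, 5.01 and 4.96 CPM in WT IRI and 4.69, 3.75 and 2.24 CPM in WT control (edgeR adjusted p = 0.888). The groups were apart for Cdkn1a, Gdf15 and Ccne1 and overlapped for Mki67. The 9 arrest calls fell to 5 without WT control replicate 1, 2 or 3, and the 7 entry calls to 3 without WT control replicate 2 or 3. In the fit with the Y term 1 of 21, Gdf15, and 0 of 32 were called.

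**Figure D2:**
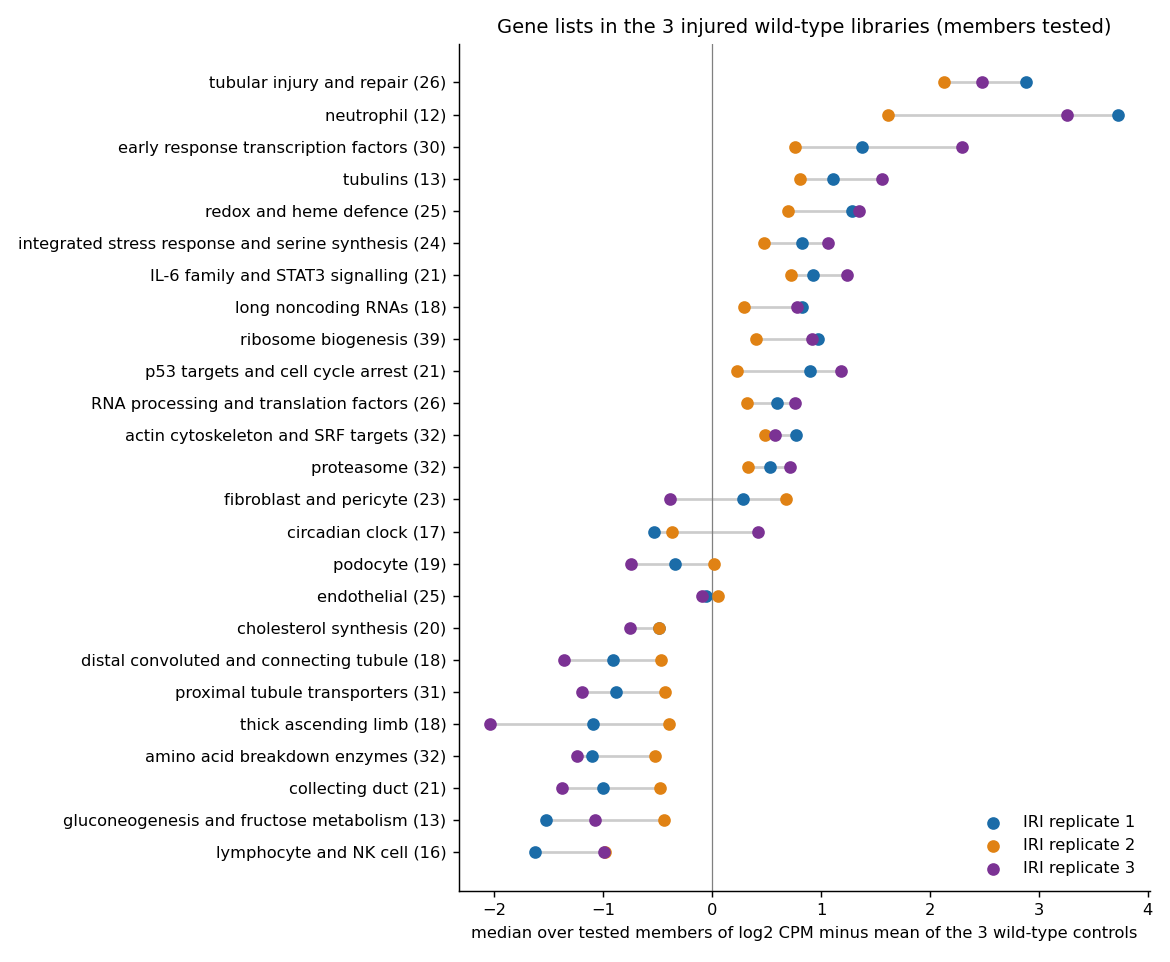
Median shift of 25 gene lists in each injured wild-type library, as log2 CPM minus the mean of the 3 WT control libraries, with the number of tested members in brackets. Each point is 1 WT IRI replicate; replicate 2 is nearest to 0 in most lists, while the fibroblast, clock, podocyte and endothelial lists have replicates on both sides of 0.

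Transporters and enzymes of the proximal tubule were lower. Of 31 transporters and receptors 15 were called lower and 1, the endocytic adaptor Dab2, higher (median log2 fold change -0.85). Slc34a3, a sodium-phosphate cotransporter, stood at 3.05, 10.8 and 13.2 CPM in WT IRI, against 44.1, 40.2 and 35.2 CPM in WT control (log2 fold change -2.15, edgeR adjusted p = 0.0111). Kl encodes klotho, the co-receptor of the phosphate hormone FGF23. It stood at 144, 285 and 186 CPM in WT IRI and 716, 765 and 589 CPM in WT control (log2 fold change -1.75, edgeR adjusted p = 0.00487). Of 32 enzymes of amino acid breakdown 21 were called lower and 1 higher (median -0.88). The 1 was Arg2, the mitochondrial arginase, at 65, 59.3 and 102 CPM in WT IRI and 15.5, 13.2 and 15 CPM in WT control (log2 fold change 2.38, edgeR adjusted p = 0.00467). Prodh, which starts the breakdown of proline, stood at 78.5, 99.3 and 81 CPM in WT IRI and 173, 193 and 264 CPM in WT control (log2 fold change -1.28, edgeR adjusted p = 0.00206). The groups were apart for each of these genes, and Arg2 moved against the rest of its list. Of 13 genes of gluconeogenesis and fructose metabolism 6 were called lower and 0 higher, among them Sord, the sorbitol dehydrogenase, at 190.0, 361 and 368 CPM in WT IRI and 796, 862 and 746 CPM in WT control (edgeR adjusted p = 0.00664). The 15 transporter calls fell to 9 without WT control replicate 2 or WT IRI replicate 1, and the 21 enzyme calls to 13 without WT control replicate 1 or 2 and to 12 without WT IRI replicate 1. In the fit with the Y term 1 of 31, 4 of 32 and 0 of 13 were called lower, while the adjusted p of edgeR was 0.148 for Slc34a3, 0.0821 for Kl and 0.0419 for Prodh, with list medians of -0.85, -0.81 and -0.77.

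Enzymes of detoxification were called lower in part. Of 31 cytochrome P450 and conjugating enzymes 8 were called lower and 2 higher, a share of higher calls below that of all genes. The median log2 fold change of the list was nonetheless 0.19, and -0.47 with the Y term. Its summed level was 3593, 3676 and 4208 CPM in WT IRI, against 3336, 3333 and 3035 CPM in WT control. Whether called or not, 12 genes had lower and 7 had higher WT IRI groups without overlap. The share of all genes tested with such WT groups is not given here, so these counts describe the list alone. Cyp27b1, which makes active vitamin D, stood at 1.16, 2.27 and 2.43 CPM in WT IRI, against 7.92, 4.83 and 6.86 CPM in WT control (log2 fold change -1.74, edgeR adjusted p = 0.0333). Gstp1, a glutathione transferase, stood at 199, 134 and 120.0 CPM in WT IRI and 76.2, 77.9 and 71.9 CPM in WT control (log2 fold change 1.0, edgeR adjusted p = 0.00607). The groups were apart for both. Of 11 genes of the last proximal segment 2 were called lower and 0 higher, against 9.41% and 13.1% of all genes tested. Among the 2 was Slc22a7, an organic anion transporter. It stood at 19.6, 27.1 and 36.1 CPM in WT IRI and 153, 79.5 and 81.3 CPM in WT control. The call of Cyp27b1 ended without any 1 of the WT controls or of WT IRI replicates 1 and 3 (edgeR adjusted p from 0.0516 to 0.105), and the 8 lower calls fell to 3 without any 1 of the WT controls, to 2 without WT IRI replicate 1 and to 4 without WT IRI replicate 3. The 2 higher calls became 1 without any 1 of the WT controls or WT IRI replicate 1, and 6 without WT IRI replicate 2 or KO control replicate 1. None of these 3 genes passed under the Y term.

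Cholesterol synthesis was lower as well. Of 20 genes 8 were called lower and 0 higher (median log2 fold change -0.61). Cyp51, which removes the methyl group of lanosterol, stood at 23.7, 29.7 and 48.4 CPM in WT IRI, against 186, 129.5 and 131 CPM in WT control (log2 fold change -2.14, edgeR adjusted p = 0.00226). Insig1, the sterol-sensing partner of this pathway in the endoplasmic reticulum, stood at 14.1, 16.3 and 29.1 CPM in WT IRI and 39.9, 43.3 and 45 CPM in WT control (log2 fold change -1.11, edgeR adjusted p = 0.00952). Both genes had groups that did not overlap, and WT IRI replicate 3 was nearest to the controls in each. Over the whole list the median shifts from the controls were -0.49, -0.49 and -0.76 in WT IRI replicates 1, 2 and 3. There replicate 3 was thus the farthest, unlike for these 2 genes. In the KO libraries Cyp51 stood at 32.7, 26 and 41.1 CPM in KO IRI and 115, 173 and 179.5 CPM in KO control, again without overlap. The 8 lower calls fell to 5 without WT control replicate 2 and to 4 without WT control replicate 3, and with the Y term Cyp51 alone passed (edgeR adjusted p = 0.0351), with a median of -0.68 over the list.

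The distal segments were lower too. In the thick ascending limb, which builds the salt gradient of the medulla, 8 of 18 genes were called lower and 1, Cldn14, a claudin that blocks the paracellular path of calcium, higher. Slc12a1, its sodium-potassium-chloride cotransporter, stood at 249.6, 816 and 148 CPM in WT IRI and 1468, 1349 and 1997 CPM in WT control (log2 fold change -1.99, edgeR adjusted p = 0.0214). Of 18 genes of the distal convoluted and connecting tubule 10 were called lower and 1 higher. Of 21 genes of the collecting duct 12 were called lower and 0 higher (median log2 fold change -0.94). Aqp4, a basolateral water channel, stood at 8.9, 13.3 and 6 CPM in WT IRI and 70.2, 38.7 and 59.3 CPM in WT control (log2 fold change -2.58, edgeR adjusted p = 0.00258), and Aqp2, the apical channel set by vasopressin, at 103, 159 and 83.4 CPM in WT IRI and 132, 92.7 and 163 CPM in WT control (edgeR adjusted p = 0.72). The injured libraries lay below all controls for Slc12a1 and Aqp4 and overlapped them for Aqp2. The 8, 10 and 12 lower calls fell to 4, 5 and 2 without WT control replicate 2, to 3, 6 and 4 without WT control replicate 3, and to 3, 5 and 2 without WT IRI replicate 1, and they were 15, 14 and 19 without WT IRI replicate 2. Without WT IRI replicate 3 the thick limb and collecting duct counts were 5 each. The call of Slc12a1 ended without WT control replicate 2 or 3 or WT IRI replicate 1 (edgeR adjusted p from 0.0504 to 0.0761), and with the Y term 0, 0 and 1 genes were called lower, Aqp4 being the 1.

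Leukocyte genes moved in both directions. Of 19 neutrophil genes in the counts 12 had enough reads to be tested. Of these 12, 8 were called higher and 0 lower, all at low levels. A gene near 0 in all controls could be tested only through injured libraries, so these counts are partly set by that choice. The summed level of the list was 35.25, 13.52 and 37.26 CPM in WT IRI, against 11.15, 10.71 and 13.88 CPM in WT control. WT IRI replicate 2 thus lay within the range of the controls. S100a9, a calcium-binding alarmin, stood at 6.75, 1.75 and 9.11 CPM in WT IRI, against 0.041, 0.068 and 0.058 CPM in WT control (log2 fold change 6.66, edgeR adjusted p = 0.000648). Of 28 genes of macrophages and dendritic cells 7 were called higher and 7 lower, against 13.1% and 9.41% of all genes tested. Cd14, the co-receptor for bacterial lipopolysaccharide, stood at 40.7, 15.4 and 105 CPM in WT IRI and 3.13, 2.28 and 2.39 CPM in WT control (log2 fold change 4.37, edgeR adjusted p = 0.00252). H2-Eb1, of the class II complex that presents peptides to T cells, stood at 14, 15.7 and 11.6 CPM in WT IRI and 35.2, 32.7 and 32.9 CPM in WT control (log2 fold change -1.29, edgeR adjusted p = 0.00252). The groups were apart for all 3, with S100a9 and Cd14 above and H2-Eb1 below the controls. Of 24 lymphocyte genes in the counts 16 were tested, of which 10 were called lower and 0 higher. A gene near 0 in all injured libraries could be tested only through controls, so the same limit holds here. The summed level of the list was 4.25, 6.34 and 4.87 CPM in WT IRI and 12.2, 12 and 15.8 CPM in WT control. Those 10 calls fell to 4 without WT control replicate 1 or 3, to 5 without WT control replicate 2 and to 3 without WT IRI replicate 1. With the Y term 2 neutrophil genes, 3 macrophage genes and 0 lymphocyte genes were called higher and 0, 4 and 1 lower, and S100a9, Cd14 and H2-Eb1 were among them.

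Genes of coagulation and proteolysis were called in both directions. Of 25 genes of complement and coagulation 8 were called higher and 5 lower, against 13.1% and 9.41% of all genes tested. Serpina3n, a proteinase inhibitor, stood at 15.6, 8.37 and 33.6 CPM in WT IRI, against 0.447, 0.574 and 0.79 CPM in WT control (log2 fold change 4.98, edgeR adjusted p = 0.0014). F5, coagulation factor V, stood at 2.8, 3.28 and 7.11 CPM in WT IRI and 12.1, 13.5 and 10 CPM in WT control (log2 fold change -1.44, edgeR adjusted p = 0.0124). Serpina3n was higher and F5 lower in every injured library than in any control. Of 20 matrix proteinases and inhibitors 6 were called higher and 6 lower. Adamts4, which cleaves aggrecan, stood at 20.8, 9.68 and 45.5 CPM in WT IRI and 1.87, 1.96 and 1.45 CPM in WT control, while Mme, the brush border enzyme neprilysin, stood at 51, 98.5 and 66 CPM in WT IRI and 246, 192 and 184 CPM in WT control (edgeR adjusted p = 0.0021 and 0.00552). The 5 lower complement calls fell to 3 without WT control replicate 1 or 3 or WT IRI replicate 1 and to 2 without WT control replicate 2, and the 6 lower proteinase calls to 3 without WT IRI replicate 1. Under the Y term 5 and 3 genes of the lists were called higher and 1 and 2 lower, Serpina3n and Adamts4 among the higher ones, and F5 and Mme were not called.

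Targets of YAP and junction genes were higher in part. Of 19 targets of YAP and TEAD, the factors that respond to tension and cell contact, 8 were called higher and 1 lower. Ankrd1 stood at 8.09, 2.46 and 2.43 CPM in WT IRI, against 0.711, 0.625 and 0.636 CPM in WT control (log2 fold change 2.71, edgeR adjusted p = 0.0053). F3, tissue factor, stood at 59.7, 24.7 and 58.4 CPM in WT IRI and 11.6, 9.19 and 8.79 CPM in WT control (log2 fold change 2.27, edgeR adjusted p = 0.00259). Of 28 genes of junctions and adhesion 7 were called higher and 1 lower, against 13.1% and 9.41% of all genes tested. Cldn4, a claudin that tightens the paracellular path, stood at 49.5, 25.7 and 160.1 CPM in WT IRI and 13.2, 12.3 and 11.3 CPM in WT control (log2 fold change 2.68, edgeR adjusted p = 0.011). All 3 genes were higher in each injured library than in any control. The 8 YAP calls fell to 2 without WT control replicate 1 or 2, to 3 without WT control replicate 3 or WT IRI replicate 1, and to 5 without WT IRI replicate 3 or KO IRI replicate 3. Under the Y term 0 of 19 and 2 of 28 were called higher, none of the 3 named genes among them.

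Markers of vessels and interstitium were called in both directions. Of 25 endothelial genes 5 were called higher and 2 lower, with a median log2 fold change of -0.14. The summed level of the list was 1350, 1537 and 1441 CPM in WT IRI, against 1768, 1694 and 1725 CPM in WT control. Of all genes tested 13.1% were called higher and 9.41% lower. The share of lower calls in this list and in the fibroblast list below was under that of all genes. Kdr, the main receptor of VEGF, fell to 56.1, 64.7 and 68.1 CPM in WT IRI, against 100.4, 103 and 84.6 CPM in WT control (log2 fold change -0.61, edgeR adjusted p = 0.00721). Selp, the P-selectin that catches leukocytes, stood at 1.48, 0.82 and 5.85 CPM in WT IRI and 0.508, 0.27 and 0.154 CPM in WT control (log2 fold change 3.12, edgeR adjusted p = 0.012). Of 23 genes of fibroblasts and pericytes 8 were called higher and 2 lower, and Tnc, a matrix protein of wounds, stood at 20.6, 12.2 and 28.9 CPM in WT IRI and 2.8, 2.67 and 5.32 CPM in WT control (log2 fold change 2.51, edgeR adjusted p = 0.0044). Col1a1, of fibrillar collagen, stood at 81.9, 185 and 31.4 CPM in WT IRI and 70.3, 49.4 and 42.4 CPM in WT control (edgeR adjusted p = 0.21). Kdr, Selp and Tnc had groups that did not overlap. Of 19 podocyte genes 4 were called lower and 1, the adaptor Cd2ap, higher. The 5 higher endothelial calls fell to 3 without WT control replicate 1 or WT IRI replicate 3 and to 1 without WT control replicate 2 or 3, where Selp was no longer called, and the 4 lower podocyte calls lay between 0 without WT control replicate 2 or 3 or WT IRI replicate 1 and 9 without WT IRI replicate 2. When the Y term was added, Kdr and Tnc were called and Selp was not (edgeR adjusted p = 0.142).

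Hormone systems that act on the kidney were also changed in part. Of 25 regulators of salt, mineral and blood pressure control 8 were called lower and 4 higher, and Kl and Cyp27b1, described above, were among the lower ones. The share of higher calls was near the 13.1% of all genes tested, and that of lower calls above the 9.41% of all genes. Edn1, the vasoconstrictor endothelin, stood at 4.59, 2.33 and 7.47 CPM in WT IRI, against 0.873, 1.32 and 1.18 CPM in WT control (log2 fold change 2.09, edgeR adjusted p = 0.00606). Fxyd5, a modulator of the sodium pump, stood at 13.1, 8.84 and 8.15 CPM in WT IRI and 4.18, 3.85 and 4.97 CPM in WT control (log2 fold change 1.21, edgeR adjusted p = 0.0049), and 1 of 12 genes of the pump list was called higher and 2 lower. In the pump list the share of higher calls was below that of all genes, and that of lower calls above it. Edn1 and Fxyd5 were both above the controls in every injured library. The 8 lower calls of regulators fell to between 2 and 5 without any 1 of the WT controls or of WT IRI replicates 1 and 3, and the 4 higher calls to 1 or 2 in the same settings and without any 1 of the KO libraries except KO control replicate 1. Under the Y term 0 genes of either list were called.

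Clock genes were called in both directions. Of 17 tested genes 2 were called higher and 4 lower (median log2 fold change -0.11). The share of higher calls was below the 13.1% of all genes tested, and that of lower calls above the 9.41% of all genes. The 2 higher calls became 0 without any 1 of the WT controls, 1 without WT IRI replicate 1 or 3 and 5 without WT IRI replicate 2, and without WT IRI replicate 3 the median was -0.50. Dbp, an output factor of the clock, stood at 15.4, 20.4 and 12.8 CPM in WT IRI and 53.3, 37.5 and 45 CPM in WT control (log2 fold change -1.48, edgeR adjusted p = 0.00383). Arntl, which drives the clock, stood at 31.8, 37.4 and 79.2 CPM in WT IRI and 23.2, 38.5 and 31.1 CPM in WT control (edgeR adjusted p = 0.189), and Nr1d1, which represses Arntl, at 33, 44.1 and 71.1 CPM in WT IRI and 58.2, 51.5 and 54 CPM in WT control (edgeR adjusted p = 0.672). Dbp was lower in every injured library, whereas the highest values of Arntl and Nr1d1 were both in WT IRI replicate 3 and the groups overlapped. After adding the Y term, 0 of the 17 were called, with an edgeR adjusted p of 0.0611 for Dbp. The sources used here do not say at what hour kidneys were taken.

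Beyond protein-coding genes, the shares called differed by gene type. Of 36 small nuclear RNA genes 16 (44.4%) were called higher and 0 lower, and of 1049 processed pseudogenes 162 (15.4%) were called higher and 34 (3.24%) lower. Of 794 long intergenic noncoding RNAs 59 (7.43%) were called higher and 69 (8.69%) lower. Pseudogenes and small nuclear RNA genes share sequence with near-identical copies, so that their counts are uncertain. Gm29371, a noncoding RNA of unnamed function, stood at 35.9, 15.2 and 53 CPM in WT IRI, against 0.548, 0.726 and 0.598 CPM in WT control (log2 fold change 5.79, edgeR adjusted p = 0.000356). Neat1, the scaffold of nuclear paraspeckles, stood at 1974, 1130 and 12170 CPM in WT IRI and 568, 613 and 894 CPM in WT control (log2 fold change 2.88, edgeR adjusted p = 0.0188). Both had groups that did not overlap, and WT IRI replicate 3 alone carried most of the Neat1 reads. The call of Neat1 ended without WT control replicate 1, 2 or 3 (edgeR adjusted p from 0.0562 to 0.0728), in a fit to the 6 wild-type libraries alone (edgeR adjusted p = 0.0874) and under the Y term (edgeR adjusted p = 0.232). Of 18 long noncoding RNAs in a list of known ones 9 were called higher and 1 lower, 4 higher without any 1 of the WT controls and 0 under the Y term.

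The injured libraries differed in how far they lay from the controls. Over the 2512 higher genes the median shift from the mean of the controls, on the log2 CPM scale, was 0.86 in WT IRI replicate 1, 0.49 in replicate 2 and 1.06 in replicate 3. Over the 1808 lower genes it was -1.09, -0.59 and -1.29. Replicate 3 was the farthest from the controls for 62.4% of the higher and 62% of the lower genes, and replicate 2 the nearest for 81.6% and 84.3%. Replicate 2 was nonetheless beyond all 3 controls for 98% of the higher and 98.8% of the lower genes, and for the other injured libraries the shares were between 99.6% and 99.9%. A shift of at least 2-fold was reached by 41.6%, 20.3% and 52.9% of the higher genes and by 55.1%, 21% and 64.5% of the lower genes in replicates 1, 2 and 3. The median SD over the 3 injured libraries was 0.35 on the log2 scale for the higher genes, against 0.13 over the controls. For the lower genes it was 0.42 over the injured libraries, against 0.15 over the controls. The genes of this count were chosen with these same libraries, so the shares describe them and are no test. The order was also that of the Y-linked level, 206.6, 33.2 and 307.1 CPM, and its part in the grading was not tested. Replicate 3 also stood apart with 305.8 CPM of genes of red blood cells, whose part was not tested either.

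**Figure D3:**
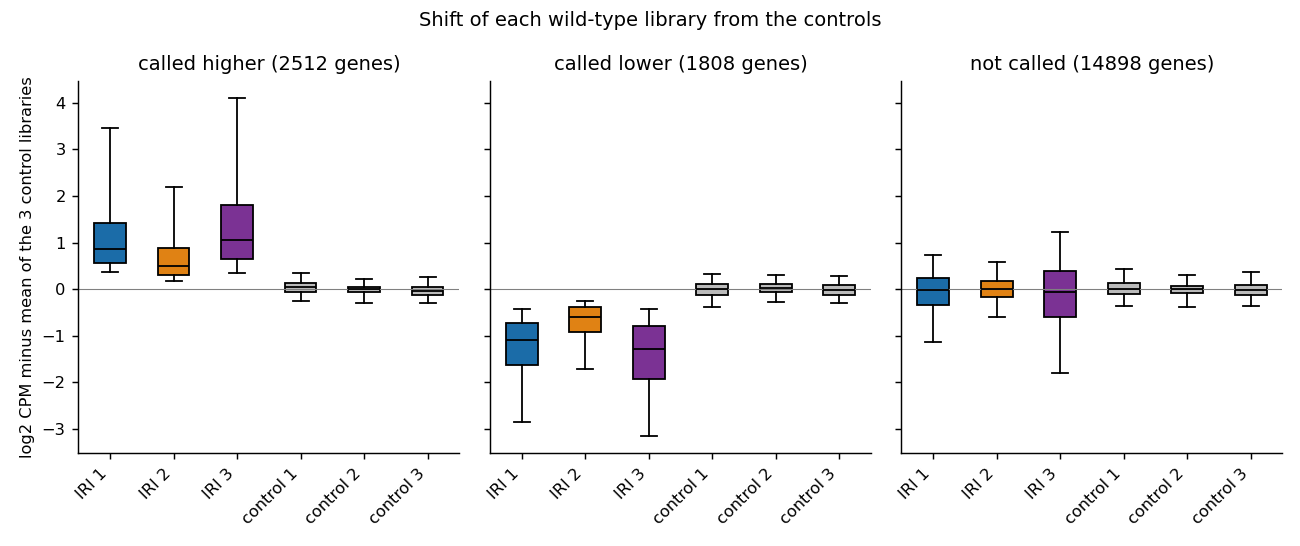
Distribution over genes of the shift of each wild-type library from the mean of the 3 WT control libraries, in log2 CPM, for genes called higher, called lower and not called. Boxes run between the quartiles with the median as a line, and whiskers reach the 5th and 95th percentiles; the box of WT IRI replicate 2 is nearest to 0 among the injured libraries in both called panels.

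Genes called in the KO libraries, a choice that used no WT library for its contrast, gave a less uneven grading. Of 749 genes called higher there, WT IRI replicate 3 was the farthest for 39.5%, replicate 1 for 48.7% and replicate 2 for 11.7%, and replicate 2 was the nearest for 64.1%. Of 466 genes called lower there the shares were 34.5%, 54.3% and 11.2% for the farthest, and replicate 2 was the nearest for 57.7%. Replicate 2 thus lay nearest to the controls for most genes of either choice, whereas the place of replicate 3 as the farthest did not carry over. In a principal component analysis of the 6 libraries the first component, with 69.5% of the variance, put the injured replicates at 55.2, 0.04 and 111 and the controls between -56.4 and -54.7. The second, with 17% of the variance, put them at 50.7, 31.5 and -44.2, and the controls between -16.7 and -10.4. The injured libraries were thus spread over both components.

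Individual genes showed how uneven the grading was. Pdk4, which turns off glucose oxidation by inhibiting pyruvate dehydrogenase, stood at 153, 58.8 and 2321 CPM in WT IRI, against 32.7, 9.77 and 12.2 CPM in WT control. Sox9, a factor of tubular repair, stood at 23.2, 5.22 and 142 CPM in WT IRI and 1.62, 1.32 and 0.964 CPM in WT control. Rnf125, a ubiquitin ligase, stood at 4.31, 2.65 and 84.6 CPM in WT IRI and 3, 2.48 and 2.29 CPM in WT control. For these 3 genes replicate 3 was several times above the other injured libraries, and for Rnf125 the other injured libraries were close to the controls. The calls of Pdk4 (edgeR adjusted p = 0.0133) and Rnf125 (edgeR adjusted p = 0.0342) ended in a fit to the 6 wild-type libraries alone (edgeR adjusted p = 0.0681 and 0.125), and that of Rnf125 ended without WT IRI replicate 3 (edgeR adjusted p = 0.287). Pdk4 was also no longer called without WT control replicate 2 or 3, nor Rnf125 without WT control replicate 1, 2 or 3. The calls of Pdk4, Sox9 and Rnf125 ended with the Y term too (edgeR adjusted p = 0.0979, 0.127 and 0.267).

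Other genes were even or ran against the order. Calu, a calcium-binding protein of the secretory pathway, stood at 88.3, 87.5 and 89.4 CPM in WT IRI, against 69.2, 63.5 and 63.2 CPM in WT control (log2 fold change 0.44, edgeR adjusted p = 0.00606). Sec61a1, the channel through which proteins enter the endoplasmic reticulum, stood at 130.2, 131 and 129.8 CPM in WT IRI and 96.1, 90.8 and 79.9 CPM in WT control (log2 fold change 0.55, edgeR adjusted p = 0.00552). These genes had nearly the same level in all 3 injured libraries, all above the controls. Cbr3, a carbonyl reductase, stood at 26.2, 12.9 and 9.53 CPM in WT IRI and 1.67, 1.99 and 1.48 CPM in WT control, and Smpdl3b, a lipid phosphodiesterase, at 12.3, 7.1 and 5.72 CPM in WT IRI and 1.22, 0.828 and 0.713 CPM in WT control. Mep1b, a brush border proteinase, stood at 9.81, 12.3 and 22 CPM in WT IRI and 118, 72 and 77.1 CPM in WT control. For these 3 genes and for Flnc and Cyp51, replicate 3 was the injured library nearest to the controls. All 5 were called with the Y term, while Calu and Sec61a1 were not (edgeR adjusted p = 0.0906 and 0.111).

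The KO libraries gave the same contrast in libraries that the WT comparison does not share. Of 19218 genes, 749 (3.90%) were called higher and 466 (2.42%) lower in KO IRI against KO control. Of the genes called higher in WT, 96.3% had the same sign in KO, and 74.7% had KO groups that did not overlap in that direction, against 21.2% of all genes tested. Of the genes called lower in WT, 94% had the same sign in KO and 66.9% did not overlap, against 15.0% of all genes tested. Genes called higher in both were 608, which is 24.2% of the WT list and 81.2% of the KO list. Genes called lower in both were 320, which is 17.7% of the WT list and 68.7% of the KO list, and 0 genes were called in opposite directions. The median KO log2 fold change of the WT genes was 0.46 for the higher and -0.49 for the lower genes, and since the genes were chosen in WT it is not set against their WT median. Without KO IRI replicate 1 the KO counts were 680 higher and 351 lower genes, and without KO IRI replicate 2 they were 172 and 80. These are the libraries with 287.9 and 1482 CPM of adrenal genes, whose part in the KO values was not tested, and KO IRI replicate 3, taken alone below, had 6.56 CPM. For a difference of the response between genotypes edgeR called 0 genes, with 1350 at an unadjusted p under 0.05, limma-voom called 0 and DESeq2 called 32. The edgeR count was 25 without KO control replicate 1.

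Within the KO libraries the Y-linked level could be held about equal on both sides. KO IRI replicate 3 and KO control replicate 1 both had about 1.2 CPM of the Y-linked genes, and there 95.1% of the genes called higher in WT and 94% of those called lower lay in the same direction, against 51.7% and 48.3% of all genes tested. KO IRI replicate 2 and KO control replicates 2 and 3 had between 227.4 and 261.2 CPM, and there the shares were 96.4% and 92.6%, against 53.5% and 46.4% of all genes tested. KO IRI replicate 2 is the library with 1482 CPM of adrenal genes, whose list differed by 8.96 on the log2 scale in this set and by -1.13 in the set of low level, and their part in these shares was not tested. These sets of 1 and 2 libraries a side were taken after their Y-linked values were seen and carry no test. Havcr1 differed by 7.84 and Plin2 by 3.31 on the log2 scale in the set of low level, and by 8.43 and 3.75 in the set of high level. Early response genes had medians of 0.81 and 1.43, ribosome biogenesis 0.71 and 0.69, amino acid breakdown -0.62 and -1.03, and cholesterol synthesis -0.36 and -0.66. These 4 lists had their WT direction at both levels. Other lists did not, or less evenly. Podocyte genes had medians of 0.19 and 0.00, against -0.34 in WT, the EGF family -0.15 and 0.62, against 0.49 in WT, and the integrated stress response 0.18 and 1.18, against 1.01 in WT. The cytochrome P450 list had -0.33 and -0.94, against 0.19 in WT, and the thin limb of the loop of Henle -1.12 and 0.44, against -0.22 in WT. The lists of the collecting duct, at -0.13 and -0.62, and of the distal convoluted and connecting tubule, at -0.18 and -0.75, were nearer to 0 in the set of low level.

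Genes known to differ between male and female mouse kidneys behaved otherwise. Slco1a1, an organic anion transporter that is higher in males, stood at 52.2, 8.48 and 87.3 CPM in WT IRI, against 2.21, 1.88 and 2 CPM in WT control. It stood at 9.61, 41.5 and 1.53 CPM in KO IRI and 3.45, 156 and 155 CPM in KO control. Its WT call (log2 fold change 4.60, edgeR adjusted p = 0.0412) ended under the Y term, where the log2 fold change was -0.40 (edgeR adjusted p = 0.663), and without any 1 of WT control replicates 1 to 3 or WT IRI replicate 1 or 3. Its level followed the Y-linked level in the WT libraries and was highest in KO control replicates 2 and 3. The 14 male-biased genes of the list had a median log2 fold change of 2.19 in WT and of -1.89 in KO, and with the Y term the WT median was -0.40. The 9 tested female-biased genes had medians of -1.80 in WT and -0.11 in KO. For these genes the injury and the Y-linked level cannot be told apart in the WT libraries.

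**Figure D4:**
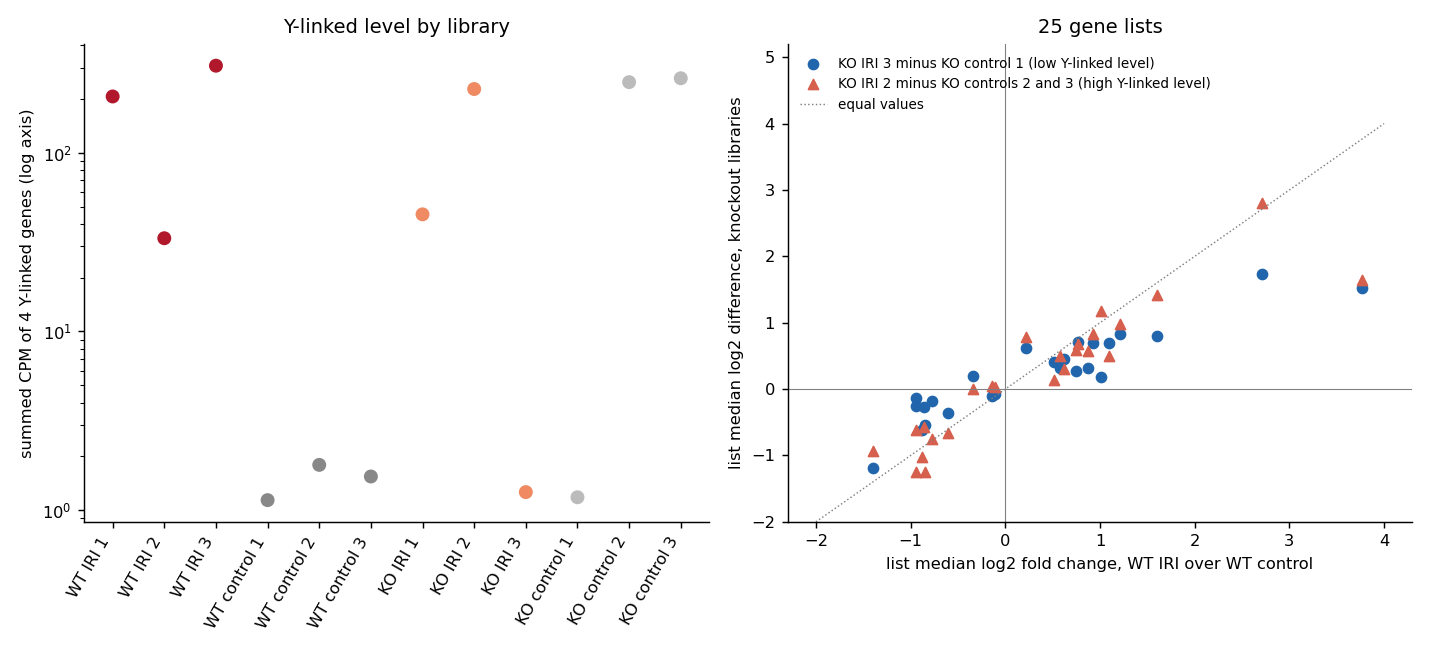
Left, summed CPM of 4 Y-linked genes in each of the 12 libraries on a log axis, with IRI left of control within each genotype. Right, median of 25 gene lists in WT IRI over WT control on the x axis and in the KO sets of like Y-linked level on the y axis, both in log2 units, with equal values on the dotted line; lists far from 0 in WT lie on the same side of 0 in both KO sets, while the podocyte list does not.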

How the data were processed

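Total RNA of whole kidneys was sequenced in 12 libraries, 3 in each of 4 groups. The authors deposited 1 table of raw read counts per gene, and reads were aligned with STAR to mm10, per the submitters' processing notes. The counting tool and its strand setting are not given in the sources used, so overlapping and antisense genes cannot be told apart. Columns were matched to samples by the labels. Of 42748 genes, 15562 had 0 counts in every library, and all 37 genes of the mitochondrial genome were among them. Gene names came from the table, and gene types and exon overlaps from GENCODE M21, in which 42548 genes were found. Depth was 39074224 to 67948710 counts per library, and 3 libraries a group limit the precision. Some genes are not reported here.

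Genes were kept with filterByExpr (minimum count 10, minimum total 15), scaled by TMM and tested with edgeR 4.0.16 in R 4.3.3 (quasi-likelihood test, Benjamini-Hochberg adjustment, 12 libraries with 1 coefficient per group). Log2 CPM used a prior count of 2. In simulated data of 18996 genes, 200 were changed. There the wild-type comparison recovered 96 of 100 genes changed 4-fold and 54 of 100 changed 2-fold, with 9 false calls. Whether these counts hold for libraries that also differ in Y-linked level, as the WT groups did, was not tested. Alternatives were DESeq2 1.42.0, limma-voom (limma 3.58.1), other scalings and filters, fewer libraries, the replicate number as a block and the Y-linked level as a further term. Deviations of same-numbered WT IRI and WT control libraries from their group means had correlations of -0.02, 0.04 and 0.08. With 3 libraries a group and a wide spread between the injured ones, these values cannot tell whether the numbers pair libraries. The sources used here do not state a pairing, and the main fit used none.

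The comparison and the 52 gene lists were chosen with earlier results of these data known. Named genes were, per direction, the 10 of largest fold change and the 6 of largest difference in CPM, up to 2 per list, 5 each by evenness, spread or contrary order over the injured libraries, and up to 5 long noncoding RNAs, with markers and clock genes whatever their values. Other list members, among them Aqp2, Col1a1, Mki67, Prodh, Egr2, Fgb, Krt8 and Hnf4a, were named after their values were seen. A fold from a group near 0 counts depends on the prior count.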

Additional observations from a re-analysis of the deposited data

Results flagged for a closer look

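Per2, a repressor of the circadian clock, responded differently in the 2 genotypes before adjustment. It stood at 48.1, 49.0 and 49.8 CPM in WT IRI and 60.9, 63.1 and 87.1 CPM in WT control, and at 52.1, 53.5 and 76.9 CPM in KO IRI and 39.6, 47.7 and 40.3 CPM in KO control. All WT IRI libraries were below all WT controls, and all KO IRI libraries above all KO controls. The response in KO minus that in WT was 1.04 on the log2 scale, with an unadjusted p of 0.00143 and an edgeR adjusted p of 0.666 over all genes tested, so the difference did not pass the correction.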

How the results depend on the processing

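The 2512 higher and 1808 lower genes of the wild-type comparison became 755 and 477 with the 6 wild-type libraries alone, 1599 and 1131 with the replicate block, and 220 and 86 with the Y term. Leaving out 1 library at a time gave 953 to 3796 higher and 593 to 3333 lower genes. DESeq2, limma-voom and the other scalings and filters kept within 1.5 times. The 749 higher and 466 lower genes of the KO comparison became 1303 and 1191 with DESeq2, 323 and 146 with the replicate block and 1152 higher with library totals, and 124 to 1724 and 54 to 1165 with 1 library left out. For the difference between genotypes DESeq2 called 32 genes, and leaving out 1 library gave 0 to 25. The cause was not tested. WT IRI replicate 3 was the farthest for 62.4% of the higher genes, against 55.7% with library totals, 59.9% with limma-voom, 55.6% with the 6 libraries and 39.5% of genes called in KO. For the lower genes it was 62%, against 64.6% with DESeq2, 65.1% with limma-voom, 40.3% with the 6 libraries and 34.5% of genes called in KO. Replicate 2 was the nearest for 81.6% of the higher genes, against 76.5% with library totals, 83.3% without small RNA genes and pseudogenes, 78.3% with DESeq2, 85.3% with the 6 libraries, 64.1% of genes called in KO and 84.2% of genes of at least 5 CPM. For the lower genes it was 84.3%, against 88.0% with library totals, 86.0% with limma-voom, 79.9% with the 6 libraries, 57.7% of genes called in KO and 87.6% of genes of at least 5 CPM. With the Y term the log2 fold change was of opposite sign for Sult1e1 (-0.57), Slco1a1 (-0.40), Gm21677 (-0.19), Gm21704 (-1.29) and Gm3376 (-2.04). The fits to the 6 knockout libraries and the sets of like Y-linked level were chosen after seeing the data.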
